A study of Drosophila melanogaster with 2 samples.

Results

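The genes described here are 9 genes of sugar handling that are known as targets of the transcription factor Mondo: sug, Kr-h1, Hnf4, daw, tobi, Aldh-III, Pfrx, Pepck1 and Pepck2. They were taken by symbol from the Ensembl release 115 annotation (BDGP6.54), which holds 13986 protein-coding genes, and all 9 were found. Binding was measured by chromatin immunoprecipitation sequencing (ChIP-seq) in Drosophila melanogaster, in whole wandering third-instar larvae of pooled sexes and unknown age. All samples carried a transgene for Mio, another name of Mondo, tagged with green fluorescent protein (GFP) at its C-terminal end, and the tagged protein was pulled down with an anti-GFP antibody from chromatin sheared by sonication. There was 1 group of 2 biological replicates, numbered 5 and 1, without a second diet, genotype or time, so no response to sugar was measured and no difference between conditions could be tested. Peaks of the replicates were called with a common control alignment, so they share its errors. Which promoter drives the transgene is not stated in the labels. In whole larvae, strong binding in a few cells and weak binding in many cannot be told apart.

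Mondo is a transcription factor of the helix-loop-helix class that acts as a pair with Mlx, also called bigmax, and is the fly counterpart of the vertebrate factors ChREBP and MondoA. The pair is activated by sugar phosphates and binds carbohydrate response elements, in which E-boxes of the form CACGTG stand as a spaced pair. In fly larvae it acts largely in fat body, gut and kidney-like tubules, where it lets the animal tolerate a sugar-rich diet. Part of its output runs through other regulators that it controls, among them sug and daw, and part through metabolic enzymes.

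The sequences that the results turn on are printed from the RefSeq Release 6 genome, on the strand of the gene, 5′ to 3′. The windows of 101 bases are centred on pooled summits and the shorter runs hold a spaced match, a pair of hexamers like CACGTG with 5 bp between them and up to 2 mismatches in all. Capitals mark a CANNTG match in the tobi window and the paired hexamers in the 3 short runs. In the Kr-h1 and Pfrx runs only the second hexamer is an E-box (CANNTG), and in the Hnf4 run both are E-boxes and neither is CACGTG. The Kr-h1, Hnf4 and Pfrx promoter windows are shown because these 3 genes had the highest pooled promoter signals and these pooled windows hold no CANNTG match. Windows at a replicate's own summit can differ: that of the Kr-h1 promoter held 2 CANNTG matches in replicate 1 and 0 in replicate 5. The tobi window is shown because it is the only pooled summit of that gene. The Kr-h1 intron summit is shown because its pooled peak reaches the spaced match printed after it.
Kr-h1 promoter summit (dm6, chr2L:6082335-6082435, + strand): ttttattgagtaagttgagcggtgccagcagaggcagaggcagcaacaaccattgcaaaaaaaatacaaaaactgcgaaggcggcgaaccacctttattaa
Hnf4 promoter summit (dm6, chr2L:8691466-8691566, - strand): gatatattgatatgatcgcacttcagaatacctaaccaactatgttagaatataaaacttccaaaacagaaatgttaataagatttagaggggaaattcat
Pfrx promoter summit (dm6, chrX:19498141-19498241, + strand): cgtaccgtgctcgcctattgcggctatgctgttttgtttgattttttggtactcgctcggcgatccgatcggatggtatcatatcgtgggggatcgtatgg
tobi promoter summit (dm6, chr3R:25347130-25347230, - strand): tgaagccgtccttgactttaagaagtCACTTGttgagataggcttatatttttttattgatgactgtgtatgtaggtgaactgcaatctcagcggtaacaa
Kr-h1 intron summit (dm6, chr2L:6088570-6088670, + strand): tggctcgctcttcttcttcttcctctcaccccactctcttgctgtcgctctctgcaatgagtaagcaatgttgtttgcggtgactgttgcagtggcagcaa
Kr-h1 intron spaced match (dm6, chr2L:6088441-6088469, + strand): gtcttgAACTTGaactaCACGTGgagggc
Hnf4 intron spaced match (dm6, chr2L:8702268-8702296, - strand): gaaccgCACATGcaagtCACATGtgtgtc
Pfrx intron spaced match (dm6, chrX:19501128-19501156, + strand): accactCACTCGcaactCACGTGaacacc

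The 9 genes had no summit of the optimal list at a promoter, and 1 in their neighbourhood. A promoter summit is one within 500 bp of a place where a protein-coding transcript starts (its transcription start site, TSS), and the reach of a gene runs from 2000 bp before it to its end. The optimal list, which was derived from both replicates, held 1146 peaks with signal values from 73.6 to 3399. Of the 9 genes, 0 had an optimal promoter summit, against 6.17% of all protein-coding genes, and 1 (Aldh-III) had an optimal summit in its reach, against 9.55%. A single call more or less would move either count across its background, so neither share sets the genes apart. Below the optimal list lay weaker summits in the relaxed lists, which hold peaks together with background: 28423 in the pooled data, 29999 in replicate 5 and 30000 in replicate 1. The signal value is the authors' own measure and its scale is not given, so it is read here only within a list, beside the rank of the peak. Read depth is unknown.

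In the pooled relaxed list all 9 genes had a promoter summit, against 47.5% of protein-coding genes, and the 7 genes with at least 2 TSSs all had one, against 70.0% of such genes. In replicate 5 the count was 8 of 9 (background 49.8%), tobi being the gene without, and in replicate 1 it was 9 of 9 (background 42.1%). At the top of each replicate's list the count rested on 1 gene, and 1 call less would put it below the background. Among the 1146 strongest peaks of replicate 5 there was a promoter summit of 1 gene, Kr-h1 (background 6.25%), and among those of replicate 1 of 1 gene, Hnf4 (background 5.63%). Among the 5000 strongest peaks the count was 6 of 9 in the pooled list (background 20.6%), where the 6 were Kr-h1, Hnf4, Pfrx, Pepck1, sug and Aldh-III. The same 6 genes were counted in replicate 1 (background 17.1%), and in replicate 5 the 6 genes (background 21.7%) held daw in place of Pepck1. The median rank of the strongest promoter summit was 3641 over the 9 genes in the pooled list, 6190 over all genes with such a summit and 4776 over those with at least 2 TSSs. It was 3170 over 8 genes against 6077 and 4871 in replicate 5, and 2146 over 9 genes against 7327 and 5366 in replicate 1. The median gene length was 8320 bp over the 9 genes and 2162 bp over all genes, and its part in these counts was not tested. The value given for a TSS in a list is that of the strongest summit within 500 bp of it, and summits of different lists count as matched when they lie within 100 bp.

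**Figure D1:**
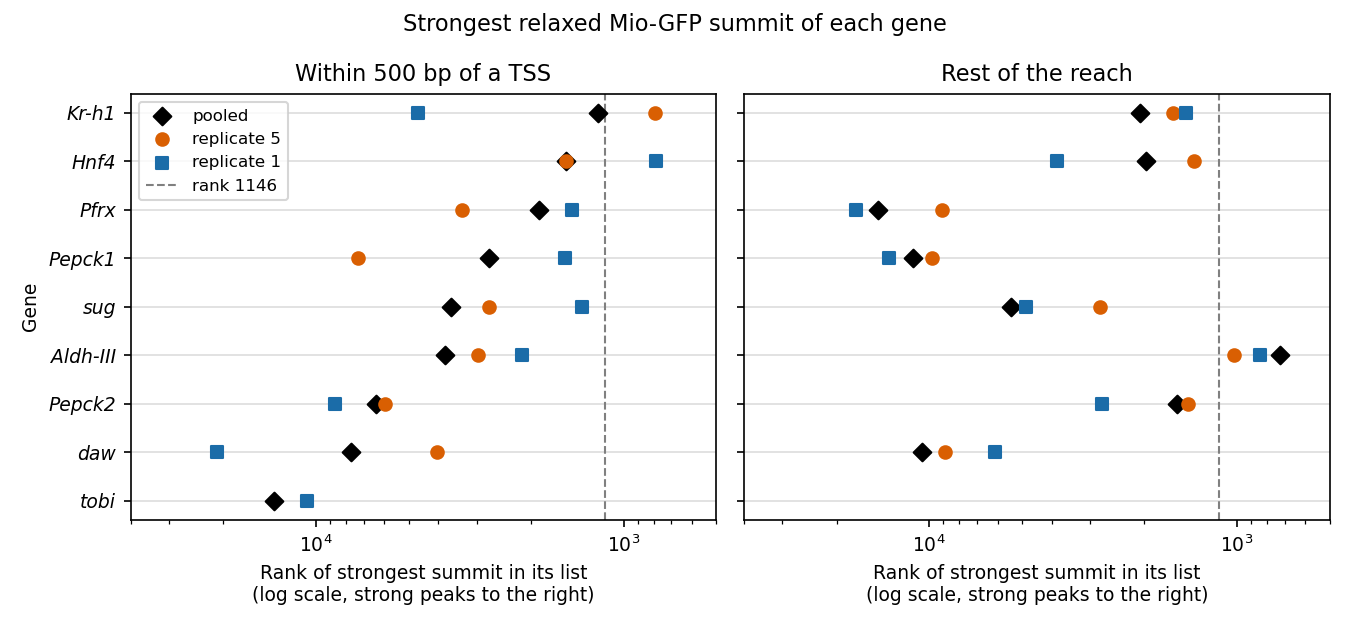
Rank of the strongest relaxed summit of each gene at its promoter (left) and in the rest of its reach (right), on a log axis with strong peaks to the right, for the pooled list (diamonds), replicate 5 (circles) and replicate 1 (squares). The dashed line marks rank 1146, the length of the optimal list: the upstream summit of Aldh-III lies past it in all 3 lists, the Kr-h1 and Hnf4 promoters each in 1 replicate, and no other summit in any.

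Among the regulators, Kr-h1 had the strongest promoter summit in the pooled list and in replicate 5. In replicate 1 those of Hnf4 (37.3) and sug (28.5) were stronger. Kr-h1 (FBgn0266450, 2L:6082603-6096498, plus strand) codes for a zinc finger transcription factor that carries the juvenile hormone signal. Its summit lay 218 bp before the start of transcript RA, in intergenic sequence, with a pooled signal of 71.4 (rank 1213), 55.7 (rank 790) in replicate 5 and 16.6 (rank 4650) in replicate 1. The pooled signal was just under the weakest optimal peak, at 73.6, and of all protein-coding genes 6.56% had a pooled promoter summit at least as strong. In replicate 5 that share was 4.50% and in replicate 1 it was 16.4%, so the place near the top was that of replicate 5 and not of replicate 1. The summits of the 3 lists spread over 86 bp. The second TSS, that of transcript RB, had no summit within 500 bp in any of the 3 relaxed lists. Between the TSSs lay an intronic summit, 2792 bp before that of RB, with a pooled signal of 55.9 (rank 2061), rank 1686 in replicate 5 and rank 7899 in replicate 1. In replicate 1 the strongest summit of the gene was another intronic one, 2224 bp after the first TSS, at 27.6 (rank 1460), above its promoter.

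Hnf4 was the only gene whose promoter summit came among the 1146 strongest of replicate 1. Hnf4 (FBgn0004914, 2L:8687226-8709611, minus strand) codes for a nuclear receptor that drives fatty acid oxidation and mitochondrial genes, and with 22386 bp and 5 TSSs it is the longest of the genes. Its strongest summit lay 307 bp before the TSS of transcript RB, inside an intron of the longer transcripts, with a pooled signal of 64.3 (rank 1538), rank 3558 at the matching summit of replicate 5 and 37.3 (rank 787) in replicate 1. The neighbouring TSS of RF had 60.2 in the pooled list, 43.2 in replicate 5 and 16.2 in replicate 1, so the replicates put the stronger summit at different TSSs. The pooled summit at RF was matched in replicate 5 and not in replicate 1. The TSS of RD had 32.6, 29.8 and 17.1 in the same order, again with no match to the first of these in replicate 1. Another pooled summit at RD, 267 bp before the TSS, had 30.4 (rank 6990). It was matched in both replicates, at 14.0 in replicate 5 and 17.1 in replicate 1. The TSSs of RE and RA at the annotated gene start shared a summit of 41.2 in the pooled list and 37.5 in replicate 5, and had none in replicate 1. The highest promoter value of each list was thus at the TSS of RB or RF, the innermost of the gene. Outside promoters the strongest summit was intronic, 2039 bp before the TSS of RF, at 57.1 (pooled rank 1974, rank 1383 in replicate 5 and rank 4979 in replicate 1).

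The gene sug (FBgn0033782, 2R:12924567-12930644, plus strand) codes for sugarbabe, a zinc finger factor that is strongly induced by dietary sugar and acts on genes of fat synthesis. Its 2 TSSs had near-equal pooled summits. That of transcript RB had 42.4 in the pooled list, 29.6 in replicate 5 and 18.0 in replicate 1, in the 5′ UTR 163 bp after the TSS, and its ranks of 3641, 3777 and 3761 were the most even of the strongest promoter summits matched in both replicates. The 3 summits fell within 11 bp. The TSS of transcript RA had a pair of neighbouring pooled summits. One, 305 bp before the TSS, had 40.4 and was matched in replicate 1 alone, at 28.5. The other, 105 bp before it, had 40.0 and was matched in replicate 5 alone, at 33.8. The replicates thus placed the peak at RA at different positions, and in each of them its signal was above that at RB. Outside promoters the strongest summit had 34.7 in the pooled list, in an intron, 33.6 in replicate 5, 682 bp before the first TSS, and 16.3 in replicate 1, in an intron, so it fell at different positions. The summit of replicate 5 also lay within 500 bp of a TSS of CG13319.

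The secreted ligand daw (FBgn0031461, 2L:2805261-2812376, plus strand), an Activin-like member of the TGF-beta family that links sugar feeding to the repression of digestive enzymes, ranked lower. Its promoter summit had 29.0 in the pooled list (rank 7678, 46 bp before the TSS), 28.7 in replicate 5 (rank 4050, 279 bp before it) and 9.40 in replicate 1 (rank 21008, 49 bp before it). That last rank was the lowest of the strongest promoter summits of the 9 genes in any list. The summit of replicate 5 that matched the pooled one had 22.1 (rank 7080). The TSS of transcript RA, 3061 bp into the gene, had no summit within 500 bp in the 3 relaxed lists. In replicate 1 an intronic summit 860 bp after the first TSS, at 15.0 (rank 6103), was stronger than the promoter.

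**Figure D2:**
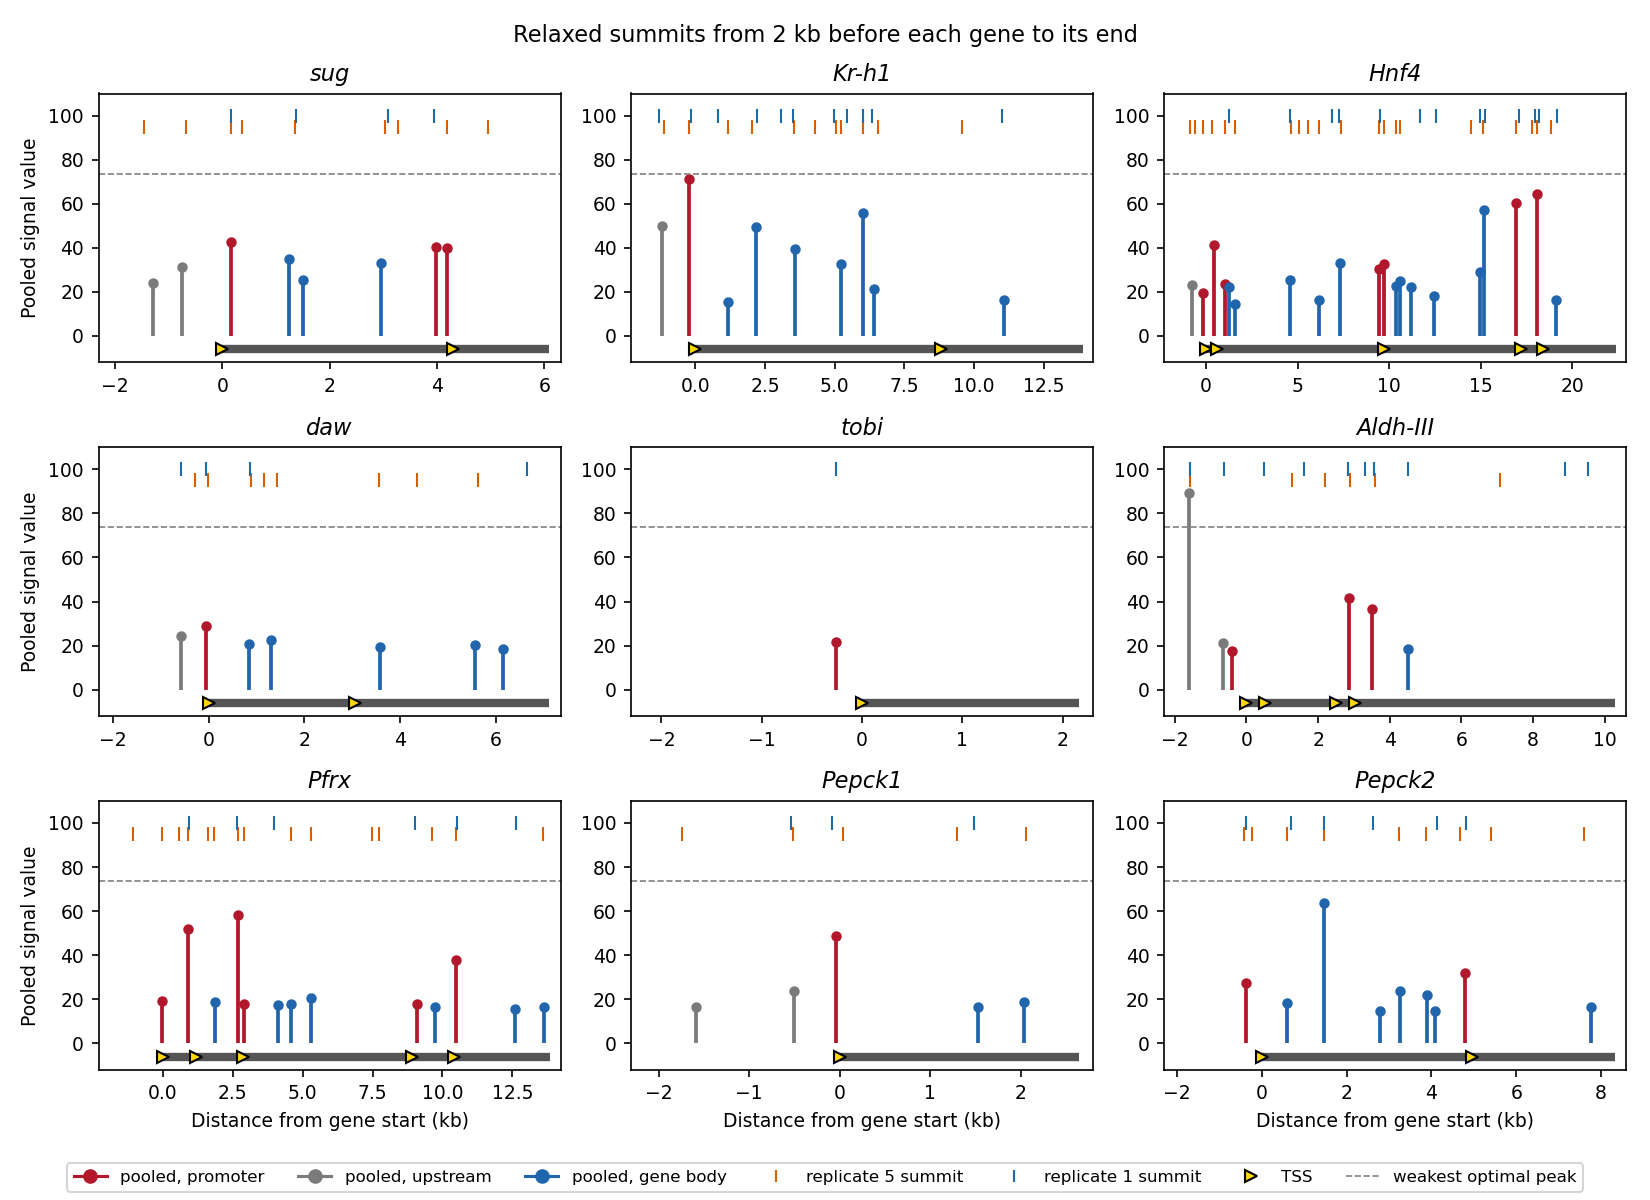
Pooled relaxed summits over the reach of each gene, with the distance from the gene start in kb on the x axis and the pooled signal value on the y axis (red, promoter; grey, upstream; blue, gene body), ticks for summits of each replicate, arrows for TSSs and a dashed line at the weakest optimal peak (73.6). Only the upstream summit of Aldh-III, at 89.4, lies above the line, and the Kr-h1 promoter, at 71.4, comes next.

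Of the enzyme genes, Aldh-III held the single optimal peak, and it lay away from the annotated promoters. Aldh-III (FBgn0010548, 2R:7466879-7477162, minus strand) codes for an aldehyde dehydrogenase that oxidises reactive aldehydes. The peak (2R:7478575-7478934, summit 7478755) was intergenic, 1593 bp before the gene start, and the TSS nearest to it was that of Aldh-III. Its signal was 89.4 in the optimal list (rank 725) and the pooled list (rank 724), 50.5 in replicate 5 (rank 1027) and 36.1 in replicate 1 (rank 841). The summits of the pooled list and both replicates fell within 26 bp, and the peak was in the upper 1146 of each. At the promoters of the gene the strongest pooled summit had 41.5 (rank 3816) and lay 183 bp before the innermost TSS. It had rank 7374 at the matching summit of replicate 5 and 22.9 (rank 2146) in replicate 1. The strongest promoter summit of replicate 5 was another, at 32.7 (rank 2985), 310 bp before the TSS of RE, RM, RR and RU. That summit had no match in the other lists. The 2 outer TSSs had at most 17.5 in the pooled list, no summit in replicate 5 and 8.10 in replicate 1.

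Pfrx (FBgn0027621, X:19495505-19509350, plus strand) codes for the enzyme that makes and removes the sugar bisphosphate that activates phosphofructokinase, and so sets the rate of glycolysis. Its strongest summit, 182 bp before the TSS of transcripts RB, RG and RN, had 58.2 in the pooled list (rank 1886), 31.2 in replicate 5 (rank 3356) and 19.4 in replicate 1 (rank 3142), within 28 bp. The TSS of RA, RI and RJ had 51.8 in the pooled list, 19.3 at the matched summit of replicate 5 (rank 9282) and 27.4 in replicate 1. Replicate 5 also had an unmatched summit of 28.5 there, 442 bp after the TSS. The innermost TSS had 37.9, 17.4 and 19.0 in the order pooled, replicate 5, replicate 1. The TSS at the annotated gene start had 19.3 in the pooled list and none in replicate 1, at a summit that also lay within 500 bp of TSSs of CG14200 and ksh. That of RD and RH had 17.9 and none in replicate 5. In the gene body no pooled summit passed 20.7 (rank 14664), and the highest was 17.2 in replicate 5 and 10.2 in replicate 1. Upstream, replicate 5 had a summit of 19.5 in the 3′ UTR of ksh, within 500 bp of a TSS of CG12204. The strongest promoter summit was above every summit of the gene body in all 3 lists. CG14200 overlaps Pfrx, so the summits inside Pfrx cannot be assigned to 1 gene.

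The paired Pepck genes differed in where their strongest summit lay. Both code for phosphoenolpyruvate carboxykinase, which makes phosphoenolpyruvate for the synthesis of glucose and glycerol, and they lie head to tail on the same strand. Pepck1 (FBgn0003067, 2R:18536767-18539416) had its strongest summit at its promoter, with 48.6 in the pooled list (rank 2746, 35 bp before the TSS), 21.8 in replicate 5 (rank 7288) and 26.8 in replicate 1 (rank 1549). That summit also lay within 500 bp of a TSS of CG45087, so it cannot be assigned to 1 gene. Elsewhere in its reach the highest values were 23.7 in the pooled list, 18.7 in replicate 5, at another position, and 11.2 in replicate 1. Pepck2 (FBgn0034356, 2R:18527430-18535749) had the reverse order. Its strongest summit (2R:18528723-18529082) was intronic, 1473 bp after the first TSS, with 63.7 in the pooled list (rank 1565), 44.1 in replicate 5 (rank 1448) and 20.5 in replicate 1 (rank 2752). Its promoter summits reached 31.9, 24.1 and 13.2 in the same order, and the one of replicate 5 did not match the pooled one. The 3 intronic summits of Pepck2 fell within 10 bp, the closest match among the pooled summits of the 9 genes that were among the 5000 strongest and matched in both replicates.

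The gene with the lowest pooled signal was tobi (FBgn0261575, 3R:25344761-25346921, minus strand), which codes for a glycosidase-like protein and is known as a target of brain insulin that responds to dietary sugar and protein. It had 1 summit in the pooled list, with 21.4 (rank 13720), 259 bp before its only TSS, and 1 in replicate 1, with 12.3 (rank 10673), 4 bp away. In replicate 5 it had none, at the promoter or elsewhere. Of protein-coding genes, 36.4% had a pooled promoter summit at least as strong.

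Over the 9 genes together, promoter summits had higher signal values than those elsewhere in the reach, and the same order was seen over all genes. The pooled list held 77 distinct summits in the reach, 25 at promoters and 52 elsewhere. The median signal was 36.8 at promoters (17.5 to 71.4) and 21.8 elsewhere (14.3 to 89.4), and over all protein-coding genes it was 27.0 and 19.9. In replicate 5 the medians were 21.8 over 27 promoter summits and 15.6 over 56 others (all genes 19.2 and 14.0). In replicate 1 they were 17.1 over 19 and 11.8 over 39 (all genes 12.6 and 10.5). The ranges overlapped widely in each list. By feature, 46 of the 77 pooled summits were intronic, 13 intergenic, 7 in a 5′ UTR, 5 in a coding exon, 4 in a 3′ UTR and 2 in a noncoding exon. A promoter held the strongest summit of the reach in 7 of 9 genes in the pooled list (52.4% of genes with a summit), 5 of 8 in replicate 5 (53.9%) and 5 of 9 in replicate 1 (42.0%). In all 3 lists it did so for 3 genes (sug, Pfrx and Pepck1), and in all 3 the strongest summit lay elsewhere for 2 (Aldh-III and Pepck2).

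**Figure D3:**
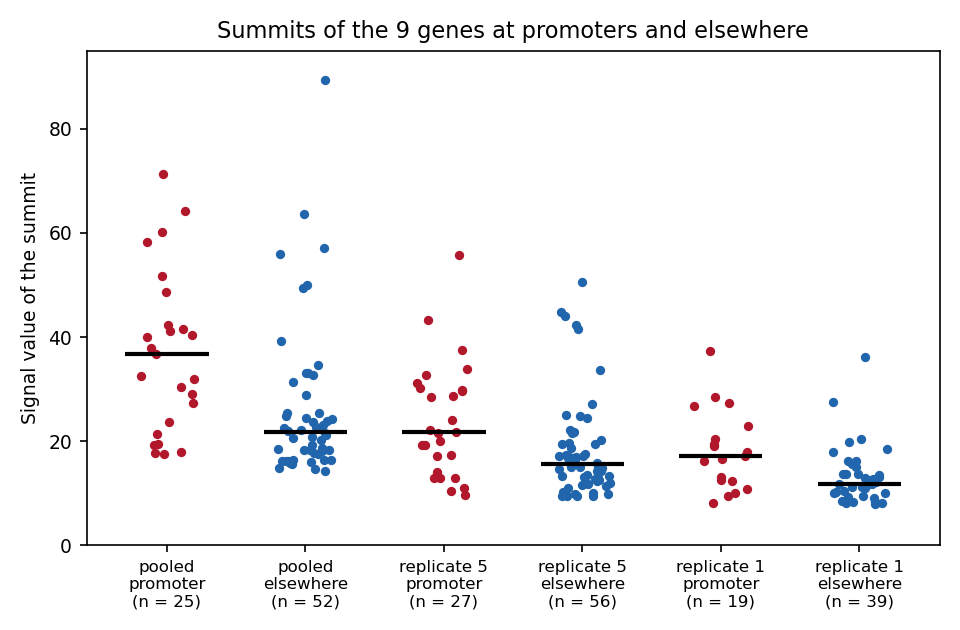
Signal value of every relaxed summit in the reach of the 9 genes, at promoters (red) and elsewhere (blue), for the pooled list and each replicate, with black bars at the medians and the number of summits under each column. The medians are higher at promoters in each list (36.8 against 21.8 pooled), the points overlap, and the highest point, at 89.4, is the upstream summit of Aldh-III.

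Summits lay closer together in these genes than in protein-coding genes as a whole, a description with no test. There were 1.10 pooled summits per kb of promoter sequence, against 0.555 over all protein-coding genes, and 0.646 per kb elsewhere in the reach, against 0.209. Replicate 5 gave 1.19 against 0.621 and 0.694 against 0.229, and replicate 1 gave 0.839 against 0.448 and 0.475 against 0.221. By gene the pooled density ran from 0.240 per kb in tobi to 1.08 in Pepck1. Of the 24 TSSs of the 9 genes, 21 had a pooled summit within 500 bp (87.5%, against 47.8% of all 19649 TSSs), 18 in replicate 5 (75.0% against 50.1%) and 19 in replicate 1 (79.2% against 40.8%). For 15 TSSs a summit was present in all 3 lists and for 2, in daw and Kr-h1, in none. In 4 of the 7 genes with several TSSs the strongest pooled promoter summit was not at the first TSS (Hnf4, Aldh-III, Pfrx and Pepck2), against 30.4% of the 2591 genes with at least 2 TSSs and a pooled promoter summit. The 500 bp limit divided a run of values: the Aldh-III summit at 480 bp (36.8) counted as promoter, and the Pepck1 summit at 501 bp (23.7) did not.

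Over summits of all strengths, a larger share of the promoter summits than of the others was matched in both replicates, without a test. Of the 25 pooled promoter summits, 12 had a summit within 100 bp in both replicates (48.0%), and of the 52 others 10 did (19.2%). Over the whole pooled list, with peaks of any place and strength, it was 6480 of 28423 (22.8%). The strongest pooled promoter summit was matched in both replicates for 7 of 9 genes, the exceptions being tobi and Pepck2, against 39.1% of the 6646 protein-coding genes with such a summit. Each replicate was matched to the pooled summit and not to the other replicate. For Hnf4 and Pepck1 the replicate summits so matched lay 120 and 114 bp apart, beyond the 100 bp limit. Among the 20 pooled summits of these genes in the 5000 strongest, 14 were matched in both, 9 of 13 at promoters and 5 of 7 elsewhere. Among these strong summits the shares at promoters and elsewhere were thus close. Of all 5000 it was 70.5%, so the count is near the background. For the order of the genes, Spearman's rho between the replicates' strongest promoter signals was 0.381 over 8 genes, a description only. It was 0.585 over the 4197 protein-coding genes with a summit in both, and the difference, with so few genes on one side, was not tested. The summits compared need not be matched. These points share the control alignment, and genes are not replicates.

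**Figure D4:**
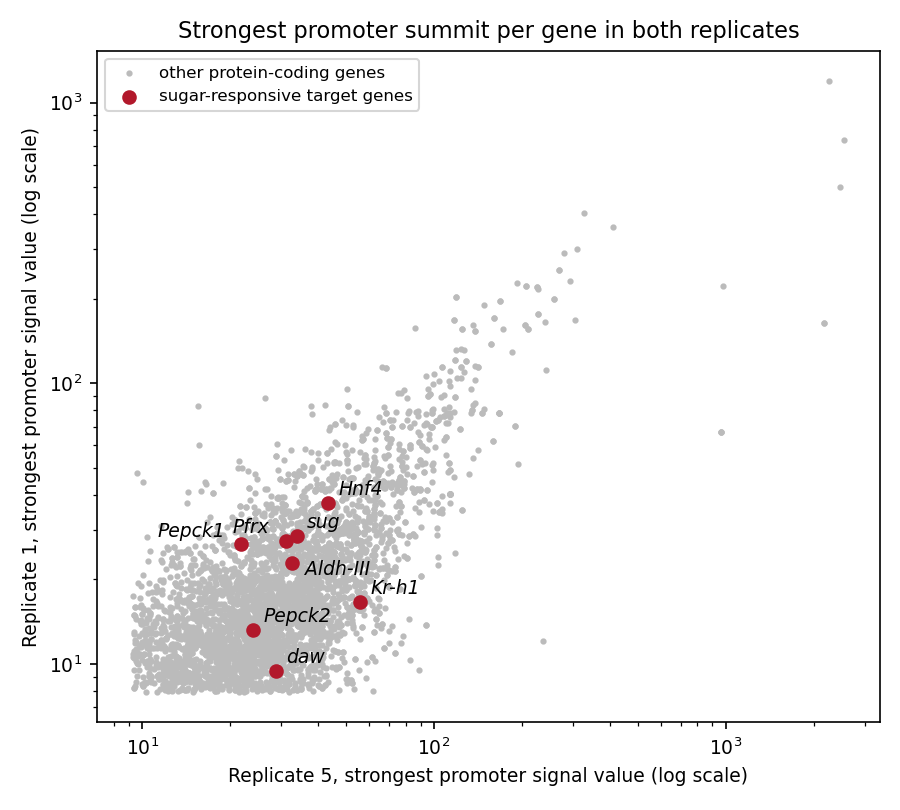
Signal value of the strongest promoter summit of each gene in replicate 5 (x axis) and replicate 1 (y axis), both on log axes, for protein-coding genes (grey) and the 8 sugar-responsive genes with a summit in both (red). The red points lie inside the main cloud, and Kr-h1 (55.7 and 16.6) and Pepck1 (21.8 and 26.8) stand on opposite sides of it.

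CACGTG, the E-box that Mondo and Mlx bind, was found at few of these summits, a share close to that of all pooled summits. It was searched on both strands, and so was a spaced pair of it, that is a pair of copies with 5 bp between them, allowing up to 2 mismatches over the 12 fixed bases, and any CANNTG other than CACGTG. The reach of the 9 genes held 15 copies of CACGTG in 6 genes (4 in Pfrx, 3 each in sug, Kr-h1 and Hnf4, 1 each in daw and Aldh-III), and tobi, Pepck1 and Pepck2 had 0. Within 500 bp of a TSS there was 1, in sug, 155 bp before the first TSS and 318 bp from the pooled summit. That made 1 of 9 genes, against 15.4% of protein-coding genes. The pair was at the promoter of 0 of 9, against 2.66%. In the whole reach there were 5 matches to the pair in 4 genes. Of these 3 are printed above, and 1 in sug and another in Hnf4 are not. Of the 15 copies, 2 lay under a pooled peak, and the share of copies under a peak over all genes was not computed. One was in the Kr-h1 intron, 159 bp from the summit of the peak with signal 55.9, and formed the printed spaced match with the hexamer before it. The matching peak of replicate 5 also held that copy, and the narrower one of replicate 1 did not reach it. The other copy was upstream of Hnf4, in the 3′ UTR of raw, 23 bp from a summit of 23.1 (rank 11893) that was matched in neither replicate. Outside the pooled peaks, an Hnf4 copy lay 57 bp from a replicate 5 summit of rank 20448. The Aldh-III copy lay 101 bp from a replicate 1 summit of rank 21630.

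Within 50 bp of the summit, CACGTG was present at 1 of 77 pooled summits of these genes (1.30%, against 1.23% of all 28389 nuclear ones), other CANNTG at 28 (36.4% against 38.0%) and the spaced pair at 1 (1.30% against 0.232%). The first 2 shares are close to the background, and that of the pair rests on 1 match. It was the Hnf4 intron run printed above, 12 bp from a pooled summit of 33.1 (rank 5937). The optimal Aldh-III summit had 0 copies of CACGTG and another CANNTG within 50 bp, which 37.2% of nuclear optimal summits also had. The spaced match in the Pfrx intron lay 350 bp from the nearest pooled summit. Pair and CACGTG matches share letters, since a pair may hold a CACGTG. The GC content of the 101-base windows was 45.1% ± 11.3 (SD, n = 25 summits) at promoters, 42.3% ± 11.3 (SD, n = 52 summits) elsewhere and 40.1% ± 9.95 (SD, n = 28389 summits) over all pooled nuclear summits.

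Genes that work with these 9 were looked up in the optimal list. Among 9 genes of the Activin branch in which daw acts, 0 had an optimal promoter summit and 3 had one in reach: the receptor wit (193.9, intronic), the transducer Smox (92.6) and the antagonist Fs (76.5, intronic). Among 7 juvenile hormone genes, the group of Kr-h1, 1 had a promoter summit, br (82.3), and the coactivator gene tai had 2 intronic ones (79.0 and 75.6). Among 10 enzymes of central carbon metabolism, 1 had one, Ldh (80.7), which makes lactate. Among 8 genes of fatty acid oxidation, a process that Hnf4 drives, 2 had one: Mcad (81.8) and the carnitine palmitoyltransferase gene whd (78.2, with another, intergenic, of 75.3). Among 4 other aldehyde dehydrogenases, P5CDh1 had a promoter summit (101.8) and Aldh an intronic one (137.8). Of 9 genes listed under lipid synthesis 3 had a promoter summit (Lpin at 153.4, Zw at 87.6 and AcCoAS at 81.2). Zw, an enzyme of the pentose phosphate pathway in that list, had a second, stronger summit outside its promoters (353.9, intronic). Of 13 digestive carbohydrases 1 had a promoter summit (Mal-A5 at 146.0). Set against backgrounds of 6.17% at promoters and 9.55% in reach, these counts rest on 0 to 3 genes a list, and no test was made.

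The genes whose strongest promoter signals were closest to those of Kr-h1 in replicate 5, replicate 1 and the pooled list were mura, pck and Ube3a, at distances of 0.0249, 0.0270 and 0.0299 on the log10 scale among 3996 genes. The gene mura had signals of 58.6, 16.9 and 72.6 in that order, against 55.7, 16.6 and 71.4 at Kr-h1.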

How the data were processed

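The peak lists were deposited by the authors in narrowPeak format for the dm6 build, 1 relaxed list for each of the 2 replicates, 1 pooled relaxed list and 1 optimal list made from them, per the text files that came with the deposited lists. Their signal values are the authors' own, on a scale that is not stated, and the −log10 q-values deposited with them were equal (3.41) in all 1146 optimal peaks. Not given in the sources used here were the aligner, the caller, their versions and the reproducibility threshold. The antibody is named as anti-GFP in the labels' description and as Mio in another label.

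From these, summits were set 1-based against the Release 6 genome, whose lengths fitted the lists, and the Ensembl release 115 annotation, with Python 3.11.15, pandas 2.3.3, NumPy 2.4.6 and SciPy 1.17.1 (figures: matplotlib 3.10.9). A summit near several genes counted for each. The assignment was checked on simulated data, with summits placed within 500 bp of an annotated TSS. Of 200 genes given a summit, 200 were recovered among 13865 genes. Recovery follows from the placing, so this checks only that the search runs correctly. With 1 group no test was made. The genes and lists were chosen with earlier results of these data known. Named besides the 9 genes were list members with an optimal summit (at most 4 a list) and the 3 genes most like Kr-h1. Other genes that share a summit were named after values were seen. PCB and PyK were added to the carbon enzymes, and a lipase gene removed from the carbohydrases, after the values had been seen. The dm3 lists and the control alignment were not analysed here.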

Additional observations from a re-analysis of the deposited data

How the results depend on the processing

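Of 43 alternatives, 25 kept the count within 1.5 times and 18 moved it. From 1 replicate alone, the count of genes with a promoter summit among the strongest peaks rose from 0 to 1 (range 1 to 1), and the counts of genes and of summits in reach rose from 1 to 2 (range 2 to 2). The stronger part of the optimal list, or a reach starting at the gene, left 0 of the Aldh-III peak. For replicate 5 and for replicate 1 the promoter count of 1 fell to 0 at a TSS distance of 200 bp and when the whole peak had to overlap the TSS, and was 6 with the 5000 strongest peaks; for replicate 1 it was 0 with the annotated gene start only. Matching within 50 bp lowered the strongest promoter summits found in both replicates from 7 genes to 4. The pooled promoter count of 9 was 7 at 200 bp and 6 for whole peaks. No paired analysis was possible because there is 1 group. Relaxed peaks include background, and read depth is unknown.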

Other observations

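Apart from Aldh-III, the optimal summit nearest to a TSS of each gene lay nearer to the TSS of another gene. For sug it lay 7706 bp away, 31 bp from a TSS of SCCRO3 (signal 79.3), and for Kr-h1 16540 bp away, 24 bp from a TSS of CG9147 (signal 364.8). For daw it was 39334 bp away, near Snx21. Pepck1, Pepck2, tobi, Pfrx and Hnf4 had theirs at distances from 84752 to 136515 bp. The median distance was 84752 bp over the 9 genes and 31962 bp over 13958 protein-coding genes. These genes were named after their values were seen.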
